A study of Homo sapiens with 56 samples.

Results

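The effects of 2 inhibitors of RNA polymerase I, PMR-116 and CX-5461, were compared with each other in KG-1 cells by bulk RNA sequencing. All 32 KG-1 libraries of the series' 56 libraries entered the comparison, taken from the line named in the labels. They fall into 8 groups of 4, replicates n1 to n4: cells given PMR-116 or CX-5461, each at 1 µM, the vehicle kept beside PMR-116 or the vehicle kept beside CX-5461, each for 3 h or 12 h. The vehicle was a citric acid and sodium phosphate buffer for both compounds, and no vehicle library served both. The quantity examined was the difference of effects, that is PMR-116 against its own vehicle minus CX-5461 against its own vehicle, at 3 h, at 12 h and as the mean of both times. It is given on a log2 scale, and a positive value means a higher level after PMR-116 relative to CX-5461. The labels' design text names only the comparison of PMR-116 with vehicle, so this pair of compounds, at 1 matched dose and 2 matched times, is compared here as the groups allow. Whether replicates came from separate cultures is not stated in the labels, so the p-values measure only the spread between these libraries.

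RNA polymerase I transcribes the long precursor of the ribosomal RNAs in the nucleolus, and its inhibition is studied in leukaemias with high ribosome output. CX-5461 is known as an inhibitor of polymerase I initiation that also traps topoisomerase II on DNA and binds G-quadruplexes, while PMR-116 is described in the series' title as an inhibitor of the same polymerase. KG-1 is an established human acute myeloid leukaemia line of primitive CD34+ type. All groups come from this 1 line. The library kit selects polyadenylated RNA, so the ribosomal precursor, the direct product of polymerase I, was not measured.

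Library totals were 31010467 to 72707768 estimated counts, 21945 to 25086 genes had a count in a library, and 18618 genes were tested. Levels are CPM, counts scaled per library, on a library size scaled by the trimmed mean of M-values. The log2 CPM of replicates correlated at 0.982 to 0.99 across genes, and no pair agreed within sampling noise. CD34, the stem cell antigen of this line, stood at 1800 to 2490 CPM and PTPRC, the CD45 antigen, at 374 to 536 CPM in all libraries. The globin gene HBB, the erythroid gene ALAS2, the B cell gene MS4A1, and the stromal, endothelial and epithelial genes COL1A1, CDH5 and EPCAM were below the filter on low counts, and the T cell gene CD3E reached at most 5.72 CPM. Summed levels were 650 to 867 CPM for the erythroid and megakaryocyte marker list, 484 to 564 CPM for the lymphocyte list and 168 to 211 CPM for the fibroblast, endothelial and epithelial list. Of the 9 tested members of the erythroid and megakaryocyte list, all 9 had a difference of effects below 0 at 12 h and none was called; the part of such cells in the results was not tested. In bulk RNA, fewer cells of a type and less RNA per cell cannot be told apart.

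Each compound changed many genes against its own vehicle, and PMR-116 changed more. PMR-116 changed 1364 genes at 3 h (7.33% of those tested, with 673 higher, 3.61%, and 691 lower, 3.71%) and 1762 at 12 h (9.46%, with 880 higher, 4.73%, and 882 lower, 4.74%). CX-5461 changed 640 genes at 3 h (3.44%, with 345 higher, 1.85%, and 295 lower, 1.58%) and 473 at 12 h (2.54%, with 254 higher, 1.36%, and 219 lower, 1.18%). Genes with an adjusted p under 0.05 were called, from edgeR's quasi-likelihood test with Benjamini-Hochberg adjustment over all 18618 genes, and adjusted p has that meaning below. With library totals in place of the scaled sizes, the 3 h split was 552 higher and 885 lower for PMR-116 and 308 higher and 419 lower for CX-5461. Changes past 2-fold were few, 125 and 108 genes for PMR-116 at 3 h and 12 h and 29 and 19 for CX-5461.

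The plot of both compounds' effects shows a shared direction with a smaller spread for CX-5461. Among 10463 genes at 5 CPM or more, the PMR-116 and CX-5461 effects correlated across genes at r = 0.694 at 3 h and r = 0.552 at 12 h. These are descriptions over genes, which are not independent replicates. The standard deviation of the log2 effect over those genes was at 3 h 0.184 with PMR-116 and 0.16 with CX-5461, and at 12 h 0.191 and 0.145. Genes called at 1 time were also read in the libraries of the other time. Those libraries entered the choice only through the shared filter, scaling and estimate of the spread. Genes called for PMR-116 at 12 h had at 3 h a median change in the called direction of 0.11 log2 with PMR-116 and 0.06 with CX-5461. The PMR-116 change was the larger for 70.7% of the 1762. Genes called for CX-5461 at 12 h had 0.10 with PMR-116 and 0.125 with CX-5461 at 3 h, and the PMR-116 change was the larger for 44.8% of the 473. Read the other way, genes called at 3 h for PMR-116 had 0.14 and 0.07 with PMR-116 and CX-5461 at 12 h (PMR-116 larger for 69.8% of 1364), and those called for CX-5461 had 0.12 and 0.11 (53.1% of 640).

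**Figure D1:**
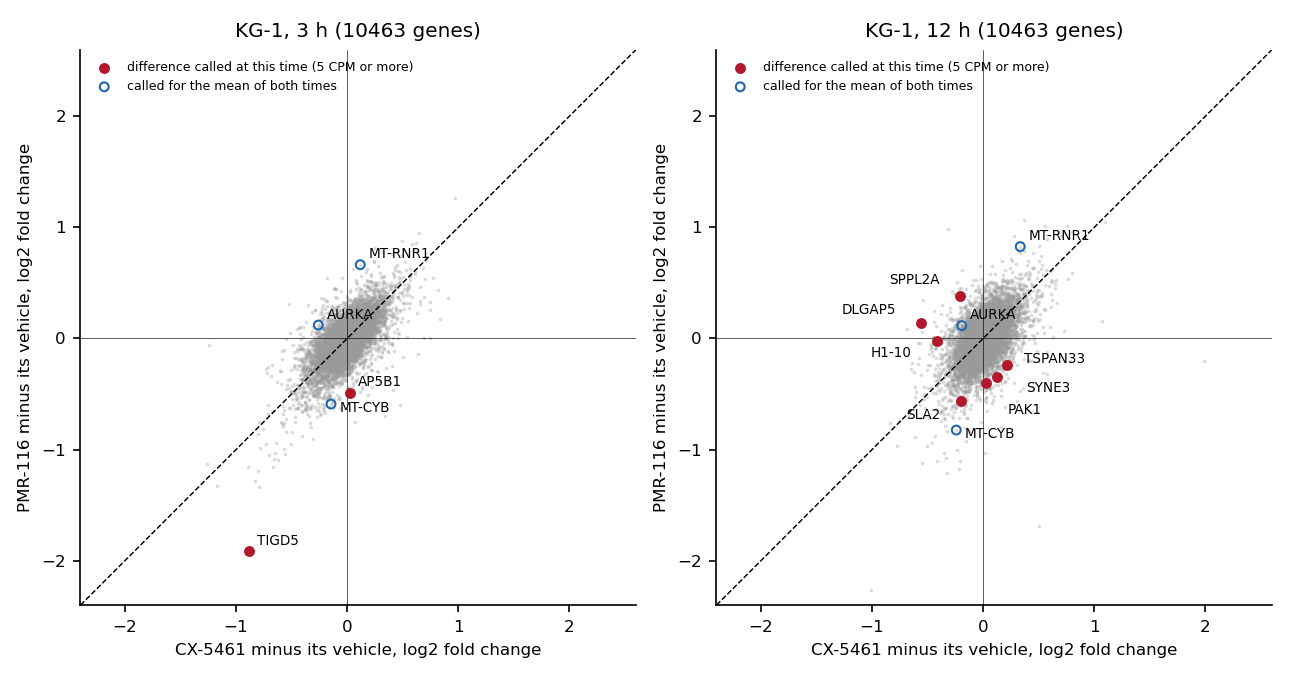
Effect of CX-5461 (x axis) and of PMR-116 (y axis) in KG-1 cells at 3 h and 12 h, each as the log2 fold change against its own vehicle, for 10463 genes at 5 CPM or more, with the diagonal of equal effects dashed. Filled red points are genes whose difference of effects was called at that time and open blue points are AURKA, MT-RNR1 and MT-CYB, called for the mean of both times; TIGD5 lies lowest at 3 h, at -1.92 with PMR-116 and -0.88 with CX-5461.

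The difference of effects itself was called for few genes. It passed the test for 2 genes at 3 h (0.0107% of genes tested, none higher and 2 lower after PMR-116), for 9 at 12 h (0.0483%, with 4 higher, 0.0215%, and 5 lower, 0.0269%) and for 19 in the mean of both times (0.102%, with 6 higher, 0.0322%, and 13 lower, 0.0698%), which together are 26 genes. At an unadjusted p under 0.05 there were 863, 1344 and 1652 genes, 4.64%, 7.22% and 8.87% of those tested. DESeq2 called 16, 91 and 143 genes, all those of edgeR among them. With the replicate number as a block, edgeR also called more genes at each time and in the mean, as given in the last section. The small count thus belongs to the edgeR fit without that block, since DESeq2 without it also called more. The 95% interval of a difference had a median half-width of 0.23 log2 at each time and 0.16 for the mean among genes at 5 CPM or more. These intervals are not adjusted for the number of genes tested. Larger differences could therefore also go uncalled, such as that of AURKA at 3 h (0.38, adjusted p = 0.157), and an uncalled gene is not shown to respond alike. No gene's difference was shown to change between 3 h and 12 h: edgeR called none (610 at an unadjusted p under 0.05) and DESeq2 called 1. The vehicle groups of the compounds differed in no gene by edgeR at 3 h or at 12 h, with 838 and 479 genes at an unadjusted p under 0.05 and 2 genes and 1 gene by DESeq2.

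At 3 h the genes called were TIGD5 and AP5B1, both lower after PMR-116. TIGD5, a gene derived from a tigger DNA transposon, was at 17.3, 14.1, 11.0 and 11.7 CPM with PMR-116 and at 58.3, 44.2, 50.0 and 52.1 CPM in its vehicle. With CX-5461 it was at 26.3, 28.6, 20 and 25.5 CPM, against 51.1, 42.4, 46.8 and 45 CPM in the vehicle of CX-5461. Both compounds therefore lowered it at 3 h (log2 fold changes -1.92 and -0.88, adjusted p = 1.13e-12 and 5.61e-06), and the PMR-116 libraries all lay below the CX-5461 libraries. The difference of effects was -1.03 log2 (95% interval -1.34 to -0.72, adjusted p = 0.00319). By 12 h all 16 libraries lay between 42.6 and 57.0 CPM and the difference was -0.07 (95% interval -0.37 to 0.24).

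AP5B1 (chr11:65775893-65780802, GRCh38) encodes a subunit of the AP-5 adaptor complex of late endosomes. It was at 57.2, 48.3, 48.4 and 50.3 CPM with PMR-116 at 3 h, against 75.0, 69.1, 70.5 and 71.8 CPM in its vehicle. With CX-5461 it stayed at 67.2, 76.7, 65.6 and 70.8 CPM, within the range of both vehicles' 8 libraries or next to it (63.5 to 75.0 CPM). The PMR-116 libraries lay below all 12 others of 3 h, and the difference was -0.51 log2 (95% interval -0.68 to -0.35, adjusted p = 0.00447). At 12 h the difference was -0.01 (95% interval -0.17 to 0.15). Both 3 h calls held when any 1 of the 16 libraries of that time was left out. With only the 4 groups of 3 h in the fit, each had an adjusted p of 0.0867 at nearly the same size.

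**Figure D2:**
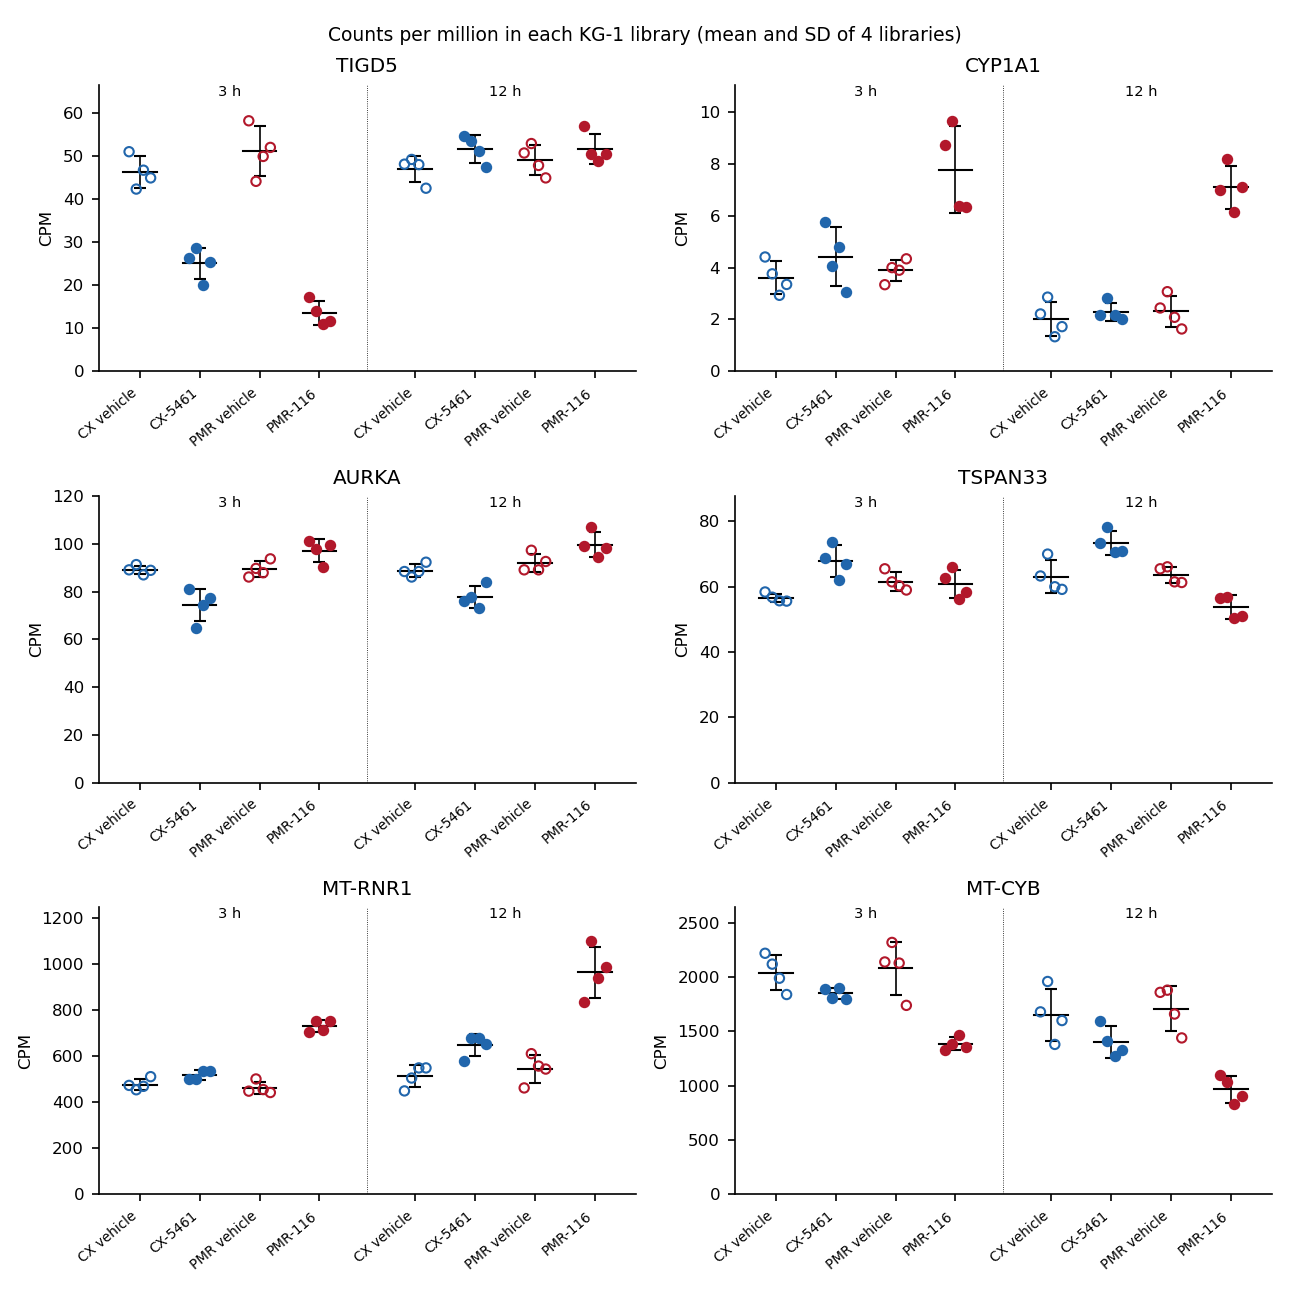
CPM of 6 genes in each of the 32 KG-1 libraries, by group and time, with the mean (long bar) and SD of the 4 libraries of a group. Treated libraries are filled and vehicle libraries open; TIGD5 is low at 3 h only, and CYP1A1, MT-RNR1 and MT-CYB set PMR-116 apart at both times.

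At 12 h the called genes with the larger levels included 3 that were higher after PMR-116, 2 of them lower after CX-5461 than in all other groups. DLGAP5, a microtubule-binding protein of the mitotic spindle, was at 37.9, 35.7, 35.4 and 41 CPM with CX-5461 against 58.9, 44.2, 56.7 and 61.2 CPM in its vehicle. With PMR-116 it was at 57.6, 56, 68.6 and 56.5 CPM against 55.6, 52.6, 54.4 and 53.9 CPM. All 4 CX-5461 libraries lay below the other 12, and the difference was 0.70 log2 (95% interval 0.44 to 0.96, adjusted p = 0.0369). H1-10, the replication-independent linker histone H1x, had the same shape. It was at 84.5, 87.2, 87.9 and 85.5 CPM with CX-5461 and between 104 and 130 CPM in the other 12 libraries, with a difference of 0.39 (adjusted p = 0.0369). SPPL2A, an intramembrane protease of lysosomes, rose with PMR-116 (0.38 log2, adjusted p = 0.000662): its PMR-116 libraries, at 25.5, 24.6, 28.5 and 25.2 CPM, lay above the other 12 at 17.8 to 24.1 CPM. Its CX-5461 libraries, at 20.3, 18.8, 20.1 and 19.7 CPM, lay below those of their vehicle at 20.6 to 24.1 CPM (-0.21, adjusted p = 0.126), and the difference was 0.59 (adjusted p = 0.0369).

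The 4 called genes of 5 CPM or more that were lower after PMR-116 at 12 h were SYNE3, TSPAN33, PAK1 and SLA2. PAK1, a kinase acting below the GTPases RAC and CDC42, was at 59.0, 61.9, 53.5 and 54.7 CPM with PMR-116 and at 70.1 to 78.3 CPM in the other 12 libraries of 12 h, a difference of -0.43 log2 (adjusted p = 0.041). SYNE3, the nesprin-3 protein of the outer nuclear membrane, was at 30.3, 34.8, 31.7 and 36 CPM with PMR-116 and at 39.6 to 47.7 CPM in the rest, a difference of -0.47 (adjusted p = 0.0478). In both genes the PMR-116 libraries lay below all others and the CX-5461 libraries overlapped the vehicles. SLA2, an adaptor that dampens antigen receptor signalling, fell with both compounds: PMR-116 libraries were at 162, 148, 137 and 154 CPM against 227, 222, 211 and 227, and CX-5461 libraries at 195, 178, 177 and 188 CPM against 230, 211, 197 and 211. The fall was -0.56 log2 with PMR-116 (adjusted p = 8.98e-09) and -0.20 with CX-5461 (adjusted p = 0.0179), a difference of -0.36 (adjusted p = 0.041).

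The tetraspanin gene TSPAN33 moved in opposite directions with the compounds. At 12 h it was at 56.7, 57.0, 50.4 and 51.0 CPM with PMR-116 against 65.5, 66.1, 61.5 and 61.3 CPM, and at 73.4, 78.4, 70.7 and 70.8 CPM with CX-5461 against 63.3, 70.0, 60 and 59.2 CPM. The groups with PMR-116 and with CX-5461 did not overlap and lay on opposite sides of the vehicles. It fell by 0.24 log2 with PMR-116 (adjusted p = 0.00963) and rose by 0.22 with CX-5461 (adjusted p = 0.0479), so that the difference was -0.46 (95% interval -0.63 to -0.28, adjusted p = 0.0369). At 3 h only CX-5461 moved it (0.26, adjusted p = 0.0119), and the mean difference over both times was -0.37 (adjusted p = 0.00689).

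Outside the rule for named genes, and so chosen after their values were seen, the other 2 genes called at 12 h were NANOS1 and CHRNA6. Both stayed under 5 CPM in every group mean, and their differences, 1.46 and -2.73 log2, are from few reads. With only the 4 groups of 12 h in the fit none of the 9 genes was called (adjusted p = 0.174 to 0.238), and leaving out 1 of the 16 libraries of that time ended the call of each in at least 6 instances, SPPL2A in 6, CHRNA6 and TSPAN33 in 8, DLGAP5 and SLA2 in 10, NANOS1 in 12, H1-10 and PAK1 in 13 and SYNE3 in 14. The highest adjusted p reached was 0.0885 for SPPL2A and 0.116 for PAK1 and SLA2. No difference changed sign in any omission.

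**Figure D3:**
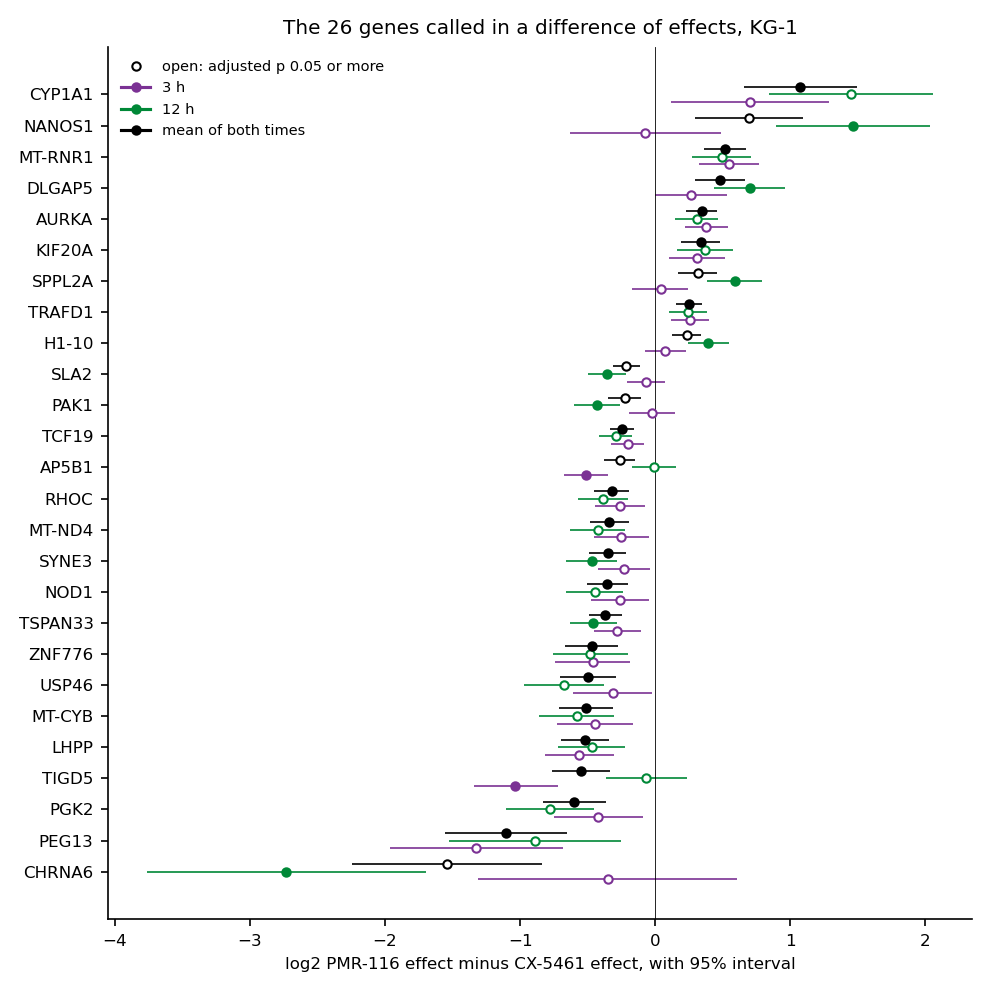
The 26 genes called in a difference of effects, ordered by its mean, with the log2 difference (PMR-116 effect minus CX-5461 effect) and its 95% interval at 3 h (purple), at 12 h (green) and as the mean of both times (black). Filled points have an adjusted p under 0.05; TIGD5 and AP5B1 are filled at 3 h and lie near 0 at 12 h, while AURKA and TRAFD1 lie at like values at both times.

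Averaging both times, 3 of the 6 genes that were higher after PMR-116 belong to mitosis: AURKA, DLGAP5 and KIF20A. AURKA (chr20:56369389-56392337), the kinase of centrosomes and spindle poles, was at 80.9, 64.9, 74.3 and 77.5 CPM with CX-5461 at 3 h and at 76.1, 77.6, 73.0 and 84.2 CPM at 12 h. Its vehicle libraries for CX-5461 were at 86.1 to 92.3 CPM over both times, above all of them. With PMR-116 AURKA was at 101, 97.9, 90.1 and 99.4 CPM at 3 h and at 98.9, 107, 94.4 and 98.3 CPM at 12 h, against 86.1 to 97.3 CPM in the vehicle of PMR-116. The PMR-116 and CX-5461 groups did not overlap at either time. The fall with CX-5461 was called at 3 h (-0.26 log2, adjusted p = 0.00665) and not at 12 h (-0.19, adjusted p = 0.0611), and the 0.12 with PMR-116 was called at neither time. The mean difference was 0.34 (95% interval 0.23 to 0.46, adjusted p = 0.00689) and kept its call in all 32 omissions of 1 library.

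KIF20A, a kinesin needed for cytokinesis, fell with CX-5461 at 3 h (-0.48 log2, adjusted p = 0.000114) and at 12 h (-0.65, adjusted p = 2.18e-06). At 12 h its CX-5461 libraries were at 35.1, 32.5, 38.3 and 42.9 CPM, its PMR-116 libraries at 54.0, 48.5, 46.4 and 52.1 CPM, and the 8 vehicle libraries at 54.0 to 66.2 CPM. Both treated groups thus lay at or below the vehicles and apart from each other, with PMR-116 nearer to the vehicles. The fall with PMR-116 was called at 12 h (-0.28 log2, adjusted p = 0.0114) and not at 3 h (-0.17, adjusted p = 0.157). The mean difference was 0.34 (adjusted p = 0.0448), a call lost in 27 of 32 omissions of 1 library (highest adjusted p = 0.0988). For DLGAP5 the mean difference was 0.48 (adjusted p = 0.022), with an adjusted p of 0.0509 without replicate 3 of PMR-116 at 3 h. At 3 h its treated groups overlapped, at 42.3 to 47.9 CPM with PMR-116 and 32.8 to 47.1 CPM with CX-5461. The vehicles did not, at 44.5 to 51.0 and 51.1 to 54.6 CPM, so the 3 h part rests in part on the vehicles. The difference of effects at 3 h was 0.26 log2, and that between treated groups alone was 0.09.

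Genes of this kind share promoter elements, chiefly the cell cycle genes homology region (CHR) and CCAAT boxes bound by NF-Y. Complexes that read the CHR include DREAM, which represses such genes in quiescent cells. The 250 bases before the start of the gene in RefSeq (GRCh38.p14) were searched in KIF20A and DLGAP5, called in the mean, and in CDCA8 and PLK1, which among the rest of the list in the promoter table had the smallest p between treated groups for the mean of both times. The places where the CHR letters stand are shown, 5′ to 3′ on the gene's strand, for the 3 genes that held them. For DLGAP5 it is the stretch upstream of all exons that GENCODE places in the window, 157 bases at chr14:55191679-55191835 (minus strand). For CDCA8 and PLK1, whose CHR letters lie under annotated exons, it is 30 bases at chr1:37692481-37692510 and chr16:23678848-23678877 (both plus strand). Capitals mark TTTGAA or TTCGAA or the reverse complement of either.
DLGAP5: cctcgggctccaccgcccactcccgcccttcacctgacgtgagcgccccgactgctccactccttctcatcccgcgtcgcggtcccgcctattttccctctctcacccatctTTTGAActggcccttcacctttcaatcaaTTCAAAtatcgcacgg
CDCA8: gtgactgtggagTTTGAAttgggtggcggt
PLK1: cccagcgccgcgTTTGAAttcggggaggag
DLGAP5 held the CHR letters at positions -138 and -109 from its start, CDCA8 at -23 and PLK1 at -29, and KIF20A had none in this window. In KIF20A 239 of the 250 bases searched lie under annotated exons. Its start in GENCODE, chr5:138178719, lies upstream of the window, so the bases before that start were not searched. CCAAT on either strand was found 2 times in KIF20A, 2 in DLGAP5, 3 in CDCA8 and 1 in PLK1. Of the 59 tested G2/M and mitosis genes in the promoter table, 49.2% held the CHR letters and 76.3% CCAAT, against 14.6% and 33% of all 27305 promoters and 10.1% and 35% of the 11596 promoters of tested genes. A match of letters is a description and not a bound site.

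Most of the list of G2/M and mitosis genes had a positive difference of effects. Of 70 tested members of 71 listed, 63 had a difference of effects above 0 at 12 h with a median of 0.21 log2, against -0.01 over all genes tested, and 64 were above 0 at 3 h with a median of 0.11. Calls in the difference were few, none at 3 h, DLGAP5 at 12 h and AURKA, DLGAP5 and KIF20A in the mean. Against its own vehicle CX-5461 lowered 18 members at 3 h (1.58% of all genes were called lower) and 20 at 12 h (1.18%), and raised none. PMR-116 raised 11 and lowered 5 at 12 h (4.73% and 4.74% of all genes), and raised 4 and lowered 2 at 3 h, near its share of all genes (3.61% and 3.71%). The plot of the list at 12 h shows most CX-5461 points below 0 and most PMR-116 points near it.

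Since all vehicle libraries had the same buffer, treated libraries were also compared directly, PMR-116 minus CX-5461, which does without the spread of 8 vehicle libraries at a time. That comparison called 22 genes at 3 h (0.118%, with 11 in each direction, 0.0591%), 379 at 12 h (2.04%, with 205 higher, 1.1%, and 174 lower, 0.935%) and 333 in the mean (1.79%, with 166 higher, 0.892%, and 167 lower, 0.897%). Among them, 4 mitosis genes were higher after PMR-116 at 3 h, AURKA (0.39 log2), FAM83D (0.47), CDCA8 (0.24) and HJURP (0.39). At 12 h 26 of the 70 were higher and none lower, beside 1.1% of all genes called higher. The largest were CENPE, the kinesin that carries chromosomes to the spindle equator (0.68, adjusted p = 0.00772), DLGAP5 (0.67, adjusted p = 0.00011), ASPM, a spindle pole protein (0.59, adjusted p = 0.00266), and KIF18A, a kinesin of chromosome alignment (0.44). Cyclins CCNB1 and CCNB2 differed by 0.33 and 0.37, the kinase PLK1 by 0.37, the anaphase activator CDC20 by 0.40 and the proliferation marker MKI67 by 0.22. The count of 26 ranged from 19 to 28 when 1 of the 8 treated libraries was left out. The count of all genes at 12 h fell to 155 without replicate 3 of CX-5461, 194 without replicate 2 of PMR-116, 209 without replicate 3 of PMR-116 and 217 without replicate 4 of CX-5461.

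**Figure D4:**
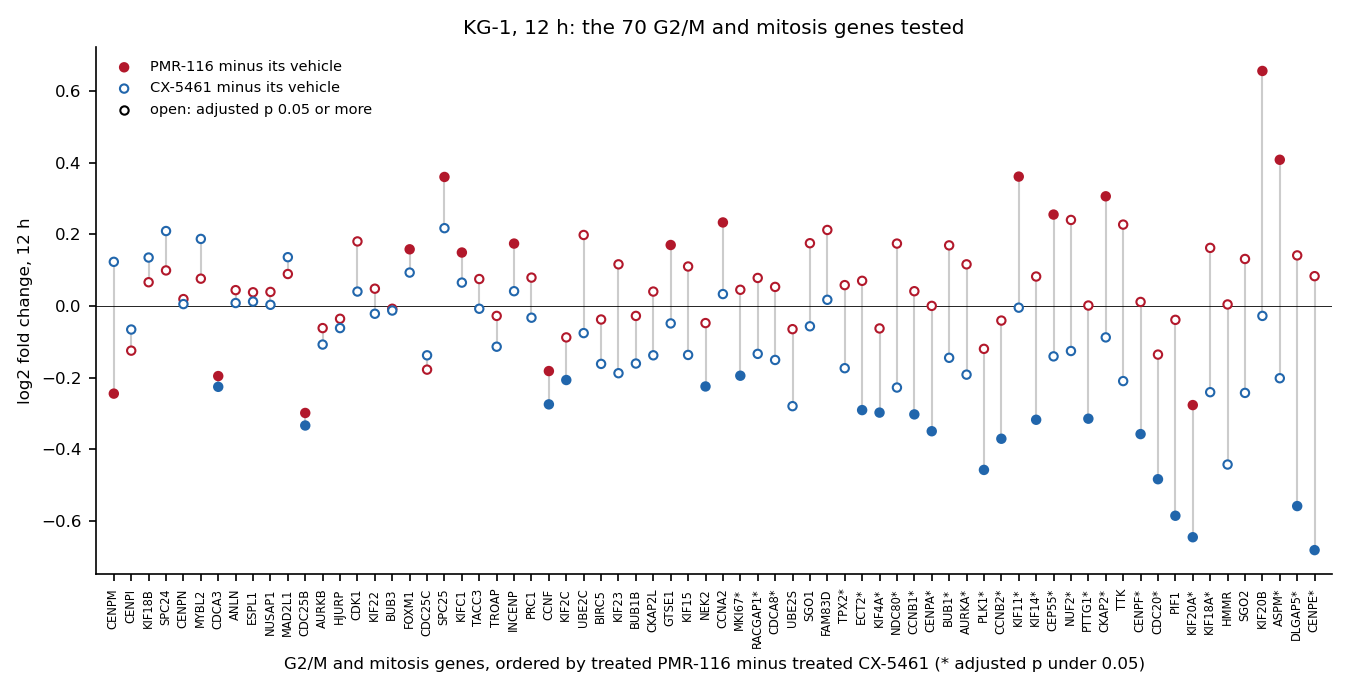
Log2 fold change at 12 h of the 70 tested G2/M and mitosis genes with PMR-116 (red) and CX-5461 (blue), each against its own vehicle, ordered by the difference between treated groups, with open points where the adjusted p is 0.05 or more. An asterisk marks the 26 genes called between treated groups; PMR-116 called 11 members higher and 5 lower, CX-5461 none higher and 20 lower.

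Most genes of DNA replication and the G1/S step had a difference of effects below 0 at 12 h. CX-5461 raised 14 of 58 tested members and lowered none (1.36% of all genes were called higher), with a list median of 0.13 log2, and PMR-116 raised 4 and lowered 4, near its share of all genes (4.73% and 4.74%). The difference of effects was below 0 in 51 of 58, with a median of -0.10 and none called; the smallest adjusted p was 0.057, for CDC45 (-0.36), a subunit of the replicative helicase, and for TIMELESS (-0.30), a protein of the replication fork. Between treated groups 6 members were lower after PMR-116 and none higher (0.935% of all genes were called lower). These were CDC45 (-0.40), the ribonucleotide reductase subunit RRM2 (-0.33), TIMELESS (-0.29), the ligase LIG1 (-0.24), the polymerase subunit POLD1 (-0.21) and the thymidine kinase TK1 (-0.21), and the count was 4 to 7 when 1 treated library was left out. At 3 h the median difference of the list was -0.01.

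Replication-dependent histone genes were measured in polyadenylated RNA, which holds only a small and variable part of these transcripts. Of 50 tested members 35 had a positive difference of effects at 12 h with a median of 0.36 log2 and none called. CX-5461 lowered 3 at 12 h (1.18% of all genes). Between treated groups 5 were called, all higher after PMR-116 (1.1% of all genes): H1-2, H2AC11, H2AC20, H2BC11 and H2BC12.

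Of the other genes higher after PMR-116 in the mean, CYP1A1 had the largest difference. CYP1A1 (chr15:74719542-74725610) encodes a cytochrome P450 that oxidises foreign compounds and is the classical target of the aryl hydrocarbon receptor. With PMR-116 it was at 8.74, 9.65, 6.37 and 6.35 CPM at 3 h and at 7.0, 8.18, 6.14 and 7.11 CPM at 12 h. Its vehicle was at 3.34 to 4.34 CPM at 3 h and at 1.63 to 3.07 CPM at 12 h. With CX-5461 it was at 5.75, 4.08, 4.8 and 3.05 CPM at 3 h, among its vehicle's 2.93 to 4.41 CPM or above, and at 2.18, 2.81, 2.17 and 2.01 CPM at 12 h, within the 1.33 to 2.86 CPM of its vehicle. All 8 PMR-116 libraries lay above all others of their time. The rise was 0.99 log2 at 3 h (adjusted p = 0.00196) and 1.62 at 12 h (adjusted p = 4.88e-06) with PMR-116, and 0.29 and 0.17, not called, with CX-5461. The mean difference was 1.08 (95% interval 0.66 to 1.5, adjusted p = 0.022) and kept its call in all 32 omissions.

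TRAFD1, a zinc-finger protein that restrains innate immune signalling, rose with PMR-116 at both times. It was at 57.7, 63.7, 62.5 and 63.9 CPM against 45.5 to 50.4 CPM at 3 h, and at 56.3, 60.3, 54.3 and 59.2 CPM against 42.7 to 45.5 CPM at 12 h, rises of 0.38 and 0.39 log2 (adjusted p = 4.9e-06 and 2.56e-06). With CX-5461 it was at 51.4 to 57.3 CPM at 3 h and at 46.9 to 50.4 CPM at 12 h, above its vehicle's 47 to 50.0 and 41.5 to 45.6 CPM, with changes of 0.12 and 0.15 that were not called. The treated groups did not overlap at either time, and the mean difference was 0.25 (adjusted p = 0.022). Without replicate 3 of PMR-116 at 3 h, replicate 3 of CX-5461 at 3 h or replicate 4 of PMR-116 at 12 h it was not called (highest adjusted p = 0.0624).

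Among the 13 genes lower after PMR-116 in the mean, 10 met the rule for named genes, 2 of them mitochondrial and 8 nuclear, with TSPAN33 above and SYNE3 (-0.35, adjusted p = 0.022) among the latter. PGK2, a phosphoglycerate kinase of spermatogenic cells that arose as a retrocopy of PGK1, was at 2.12, 2.34, 2.35 and 2.41 CPM with PMR-116 at 12 h, against 5.44, 4.89, 5.72 and 6.81 CPM. With CX-5461 it was at 3.37, 3.62, 4.24 and 4.07 CPM against 5.54, 4.74, 5.57 and 6.22 CPM, so that both compounds lowered it and the 4 PMR-116 libraries lay lowest. Its mean difference was -0.60 (adjusted p = 0.022), and since it resembles PGK1 its counts depend on how the estimates split shared reads. LHPP, a phosphatase, was at 8.96 to 10.4 CPM with PMR-116 at 3 h against 10.7 to 12.7 CPM in its vehicle. With CX-5461 it was at 9.62 to 13.4 CPM against 9.22 to 9.77 CPM in its vehicle. The treated groups thus overlapped at 3 h and the vehicles did not, so the 3 h difference rests in part on the vehicles. At 12 h the treated groups did not overlap, with PMR-116 the lower. The vehicles overlapped then, with the higher mean in that of PMR-116. The mean difference over both times was -0.52 (adjusted p = 0.00851).

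TCF19, a factor expressed at the G1/S step, was at 89.4, 91.0, 85.1 and 92.4 CPM with PMR-116 at 12 h and at 97.8 to 116 CPM in the other 12 libraries, with a mean difference of -0.25 (adjusted p = 0.00997). TCF19, LHPP and PGK2 kept their calls in all 32 omissions. For LHPP, leaving out 1 library does not remove the gap between the vehicle groups at 3 h. RHOC, a GTPase of cell motility (-0.32, adjusted p = 0.0277), NOD1, a sensor of bacterial peptidoglycan (-0.36, adjusted p = 0.0447), and ZNF776, a zinc-finger gene (-0.47, adjusted p = 0.0402), lost theirs in 9, 22 and 17 of 32 omissions. The PMR-116 libraries of RHOC lay lowest at 12 h, at 17.9, 18.3, 14.6 and 16.4 CPM against 19.5 to 23.5 CPM in all other libraries of that time. TIGD5 (-0.55), whose 3 h fall carries its mean, the imprinted noncoding RNA PEG13 (-1.11, under 5 CPM) and the deubiquitinase gene USP46 (-0.49) were called outside the rule and are named after their values were seen.

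Transcripts of the mitochondrial genome supplied 3 of the 19 genes of the mean: MT-RNR1 higher and MT-CYB and MT-ND4 lower after PMR-116. The heavy strand of this circular genome is read into 1 long precursor that runs from the 12S and 16S ribosomal RNAs through the subunits of respiratory complexes to cytochrome b, and is then cut at the tRNAs. MT-RNR1, the 12S ribosomal RNA, was at 704, 751, 716 and 754 CPM with PMR-116 at 3 h against 448, 501, 455 and 442 CPM, and at 835, 1100, 939 and 986 CPM at 12 h against 462, 611, 557 and 544 CPM. With CX-5461 it was at 499, 499, 534 and 537 CPM against 473, 454, 469 and 511 CPM at 3 h, and at 578, 678, 681 and 651 CPM against 449, 505, 549 and 549 CPM at 12 h. PMR-116 libraries lay above all others at both times. MT-RNR1 rose by 0.66 and 0.83 log2 with PMR-116 (adjusted p = 1.08e-06 and 2.01e-08) and by 0.33 with CX-5461 at 12 h (adjusted p = 0.0122). The mean difference was 0.52 (95% interval 0.36 to 0.68, adjusted p = 0.00288) and was called in all 32 omissions.

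MT-CYB, at the far end of the precursor, did the reverse. With PMR-116 it was at 1330, 1380, 1470 and 1360 CPM at 3 h against 2140, 2320, 2130 and 1740 CPM, and at 1100, 1030, 831 and 903 CPM at 12 h against 1860, 1880, 1660 and 1440 CPM. With CX-5461 it was at 1890, 1810, 1900 and 1800 CPM at 3 h against 2220, 2120, 1990 and 1840 CPM, and at 1600, 1410, 1270 and 1330 CPM at 12 h against 1680, 1960, 1380 and 1600 CPM. PMR-116 libraries lay below all others of their time, and CX-5461 libraries overlapped their vehicle. The mean difference was -0.51 (95% interval -0.71 to -0.32, adjusted p = 0.022), at an adjusted p of 0.0504 without replicate 4 of PMR-116 at 12 h. MT-ND4, a complex I subunit, differed by -0.34 (adjusted p = 0.0448), a call lost in 21 of 32 omissions (highest adjusted p = 0.0764).

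Between these ends the difference mostly fell along the strand, as the plot of the 14 heavy-strand transcripts shows, with small rises at MT-ATP8 and MT-ND5 in the mean and at 12 h. In genome order the mean log2 difference was 0.52 for MT-RNR1, 0.45 for MT-RNR2 and 0.36 for MT-ND1, then 0.13 for MT-ND2, 0.08 for MT-CO1, 0.02 for MT-CO2 and 0.03 for MT-ATP8. It went on to -0.08 for MT-ATP6, -0.13 for MT-CO3, -0.16 for MT-ND3, -0.23 for MT-ND4L, -0.34 for MT-ND4, -0.33 for MT-ND5 and -0.51 for MT-CYB. MT-ND6, read from the light strand, was at 0.00 with an SE of 0.175, from -0.14 at 3 h and 0.13 at 12 h (SE 0.248 each). This order was noticed in the data and is given as a description with no p, since the 14 points share their libraries and their precursor. Spearman's rho with position in the order was -1.0 at 3 h, -0.991 at 12 h and -0.991 for the mean, and a line through the points had slopes of -0.0674, -0.0811 and -0.0742 log2 per kb.

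Each compound alone showed a like order, less strict and less steep with CX-5461. With PMR-116 rho was -0.974 at 3 h and -0.991 at 12 h, and the line fell by 0.0939 and 0.12 log2 per kb. With CX-5461 rho was -0.807 and -0.815, and the line fell by 0.0265 and 0.0388 log2 per kb. Between the vehicles of the compounds rho was 0.176 at 3 h and 0.0901 at 12 h. The ratio of MT-RNR1 to MT-CYB in CPM gives the same in 1 value per library. At 12 h it was 0.761 to 1.13 with PMR-116 (median 1.08) against 0.249 to 0.377 in its vehicle, and 0.362 to 0.537 with CX-5461 (median 0.485) against 0.258 to 0.397. At 3 h it was 0.488 to 0.554 with PMR-116 and 0.265 to 0.298 with CX-5461, with vehicles between 0.209 and 0.277. PMR-116 libraries lay above every other library at both times, and CX-5461 libraries overlapped their vehicle at both.

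**Figure D5:**
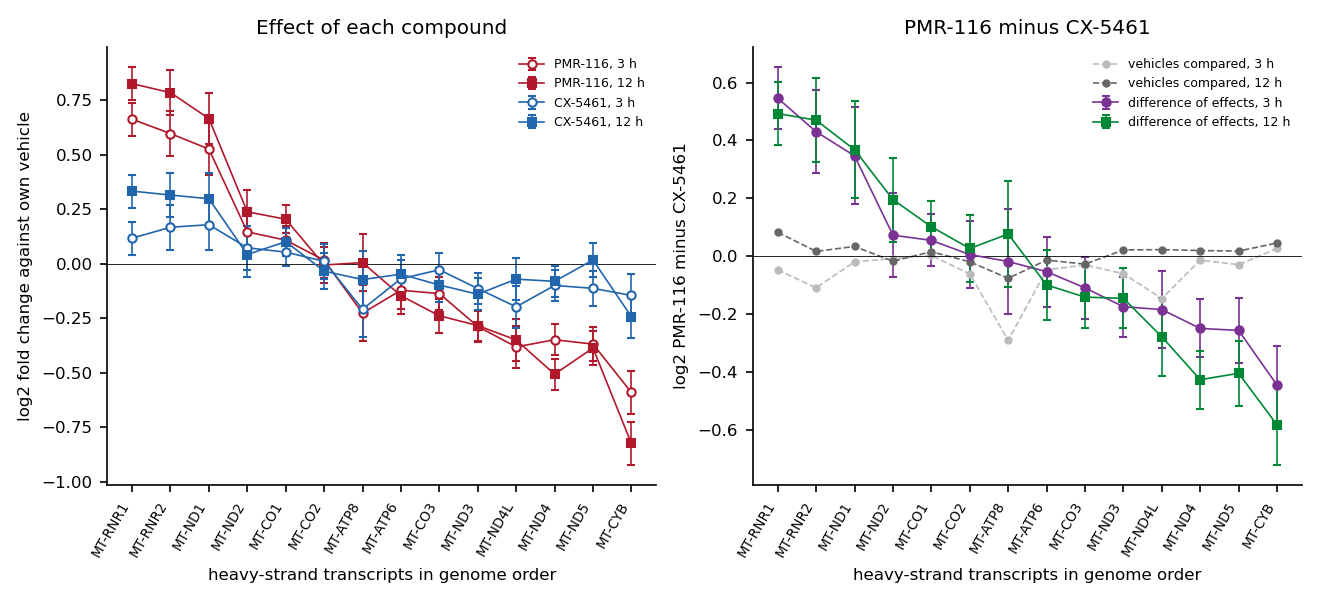
Left, log2 fold change (with SE) of the 14 heavy-strand mitochondrial transcripts in genome order with each compound against its own vehicle. Right, the difference of effects (with SE) at 3 h and 12 h, falling from 0.55 and 0.49 at MT-RNR1 to -0.45 and -0.58 at MT-CYB, beside the difference between the vehicle groups in grey, which shows no such slope.

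The total share of mitochondrial mRNA did not separate the groups, at 3.74% to 4.92% of counts in all 32 libraries. Mitochondrial ribosomal RNA made up 0.87% to 1.12% of counts with PMR-116 at 12 h, 0.617% to 0.804% with CX-5461 and 0.461% to 0.679% in the vehicles. Poly(A) selection captures these ribosomal RNAs only in part, so their levels depend on their tails and on the preparation; other RNAs of that kind, MALAT1 at 7.68 to 48.8 CPM and RN7SL1 at 10.0 to 34.1 CPM, varied between libraries, and their part in the result was not tested. Copies of mitochondrial sequence in the nuclear genome can also share reads with these genes. Against their vehicles PMR-116 changed 6 of 13 mitochondrial mRNAs at 3 h (1 higher, 5 lower; 7.33% of all genes were called) and 8 at 12 h (2 higher, 6 lower; 9.46%), and CX-5461 changed none at either time (3.44% and 2.54%).

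A panel of 18 genes, chosen with earlier results of these data known, was read at both times. Of these 1 gene, TIGD5, was called in a difference. Because the choice drew on the same data, that call is a description and no separate support. The polymerase I subunits POLR1A and POLR1B and the factors UBTF and RRN3 had mean differences of 0.00 (95% interval -0.15 to 0.15), -0.11 (-0.29 to 0.08), -0.12 (-0.25 to 0.00) and 0.13 (0.02 to 0.23, adjusted p = 0.443). CDKN1A, a cyclin kinase inhibitor, and MDM2, a ubiquitin ligase, were at -0.28 (-0.76 to 0.21) and 0.04 (-0.08 to 0.17). CDKN1A rose with CX-5461 at 12 h (0.96, adjusted p = 0.0224), and with PMR-116 its 0.64 was not called (adjusted p = 0.0919). Its level was low, with a highest group mean of 4.47 CPM. MYC, the transcription factor whose high level the series' title names, fell with PMR-116 at 3 h (-0.30, adjusted p = 0.0429) and was at -0.08 with CX-5461, with a mean difference of -0.14 (-0.33 to 0.05). Its 4 libraries with PMR-116 at 3 h were at 884, 888, 759 and 780 CPM and those with CX-5461 at 957, 968, 837 and 866 CPM, ranges that overlap.

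HEXIM1, which holds the elongation kinase P-TEFb inactive and is a common readout of its release, rose with both compounds at 3 h. PMR-116 libraries were at 75.0, 70.8, 69.8 and 71.5 CPM against 42.4, 37.5, 39.2 and 40 CPM, and CX-5461 libraries at 64.3, 62.1, 56.3 and 55.9 CPM against 42.8, 39, 38.6 and 38.7 CPM. The treated groups did not overlap, with PMR-116 the higher. At 12 h it was at 42 to 43.6 CPM with PMR-116 against 33.3 to 36 CPM, and at 33.9 to 38.9 CPM with CX-5461 against 31.7 to 34.2 CPM. The mean difference of effects, 0.23 (95% interval 0.12 to 0.34), was not called (adjusted p = 0.0723). Between treated groups it was called at 3 h (0.27, adjusted p = 0.0259) and at 12 h (0.26, adjusted p = 0.00772). KCNJ14, a potassium channel gene of the same panel, rose with both at 3 h (1.24 and 0.99), and at 12 h was at 0.01 with PMR-116 and fell with CX-5461 (-0.60, adjusted p = 0.00303); its mean difference of 0.43 (0.20 to 0.66) was not called.

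The topoisomerases of the panel were not called in a difference. TOP2A, the isoform of dividing cells, fell with CX-5461 at 3 h (-0.33, adjusted p = 0.00191) and rose with PMR-116 at 12 h (0.29, adjusted p = 0.00262), and its mean difference was 0.22 (95% interval 0.09 to 0.34, adjusted p = 0.16). TOP1 had 0.19 (0.07 to 0.31, adjusted p = 0.21) and TOP2B 0.06 (-0.07 to 0.18). The early response and stress genes FOS, JUN, EGR1, ATF3 and DDIT3 had mean differences from -0.20 to 0.00, with intervals wider than 1 log2 unit in total, so that only large differences could have been seen. The highest group means of FOS, JUN and EGR1 were 1.16, 0.272 and 0.536 CPM, so their values are from few reads.

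Of the 37 gene lists read, 5 had a called member in any difference of effects: G2/M and mitosis (3 genes), mitochondrial mRNAs (2), the zinc-finger genes (ZNF776 of 486 tested), noncoding RNAs sensitive to library preparation (MT-RNR1 of 9 tested) and the panel (TIGD5). Lists of direct interest without a call were the polymerase I machinery (23 tested, median at 12 h -0.02 log2), ribosome biogenesis factors (116, 0.03), MYC targets (57, -0.04) and DNA repair and checkpoint genes (70, -0.02), beside -0.01 over all genes. Of the cytosolic ribosomal proteins PMR-116 lowered 27 of 78 at 12 h (4.74% of all genes were called lower; list median -0.13) and CX-5461 lowered 1 (1.18%; median -0.05), and the difference was called for none, with 70 of 78 below 0 and a median of -0.07. Neither compound changed a ribosomal protein gene at 3 h.

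The further lists had calls between treated groups at 12 h or for 1 compound alone. MHC class II genes, which present antigen, fell at 12 h with PMR-116 in 9 of 15 (median -0.40; 4.74% of all genes were called lower) and with CX-5461 in 3 of 15 (1.18%), while their activator CIITA rose with CX-5461 (0.34, adjusted p = 0.0189). None was called in the difference. Between treated groups CIITA (-0.41), HLA-DMB (-0.46), HLA-DMA (-0.34) and HLA-DRB1 (-0.21) were lower after PMR-116 (0.935% of all genes); the 4 fell to 2 without replicate 3 of either compound at 12 h. Cholesterol and fatty acid synthesis genes fell with PMR-116 at 12 h in 7 of 31 (4.74% of all genes) and with CX-5461 in none (1.18%), with 25 of 31 differences below 0, a median of -0.12 and none called. ATF5, a transcription factor of the stress response, rose with PMR-116 at 12 h (1.06) and was at 0.36 with CX-5461; the difference of 0.70 was not called (adjusted p = 0.132), and that between treated groups was (0.67, adjusted p = 0.00211).

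Set beside Mv4;11, the other acute myeloid leukaemia line of the series (24 libraries, 3 in a group), the difference between the compounds was of another size in 21 genes at 3 h (0.0884% of 23759 tested, with 10 higher, 0.0421%, and 11 lower, 0.0463%, in KG-1) and in 94 at 12 h (0.396%, with 67 higher, 0.282%, and 27 lower, 0.114%, or 93 and 63 genes with library totals). The lines are also 2 batches in the labels, so line and batch cannot be told apart. AURKA and KIF20A had positive differences of effects in both lines at 3 h, the larger in Mv4;11: 0.38 log2 in KG-1 and 0.98 in Mv4;11 for AURKA (adjusted p of the difference between lines = 0.0206), and 0.31 and 1.15 for KIF20A (adjusted p = 0.0131). HEXIM1 had 0.27 in KG-1 and 0.99 in Mv4;11 (adjusted p = 0.00978), and TSPAN33 -0.28 and -1.36 (adjusted p = 0.00657). AP5B1, lower after PMR-116 in KG-1 at -0.51, was at 0.06 in Mv4;11 (adjusted p = 0.0406). HEXIM1 and TSPAN33 kept this call when any 1 of the 28 libraries of 3 h was left out, KIF20A lost it in 3 of 28, AURKA in 10 and AP5B1 in 23. In Mv4;11 at 12 h, replicate 3 of the PMR-116 vehicle stood apart with 1140 CPM of MALAT1 against 57.6 to 127 CPM in the other 11 libraries of that time, and without it 197 genes were called at 12 h.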

How the data were processed

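Polyadenylated RNA of 32 KG-1 libraries, 4 in each of 8 groups, was compared, with 24 libraries of Mv4;11, a second acute myeloid leukaemia line, used in 1 comparison of lines. The authors deposited estimated counts per gene symbol, 1 table per line; Salmon 1.5.2, DESeq2 and the build GRCh38.p13 are named, without their roles, in the submitters' processing notes. The strand setting and annotation release were not given in the sources used here. Such estimates divide reads between similar transcripts, and 100.0% of values above 0 were not whole numbers. The Mv4;11 table held 24 further columns matching no sample, which were not used. The labels give Mv4;11 as batch 1 and KG-1 as batch 2, so line and batch cannot be told apart.

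Estimates were first made whole by rounding, then fitted with edgeR 4.0.16 in R 4.3.3. Genes passed filterByExpr (minimum count 10, minimum total 15), sizes were scaled by TMM, and 1 fit of all 8 KG-1 groups (glmQLFit, glmQLFTest) pooled their estimate of the spread. The 16 groups of both lines were fitted together for the comparison of lines (23759 genes). Every test was 2-sided, with p-values adjusted by Benjamini-Hochberg over all genes, and the threshold was 0.05. Standard errors were derived from each F statistic, and 95% intervals from t quantiles. The fits were tested on simulated data. Alternatives were DESeq2 1.42.0, its size factors in edgeR, library totals, no filter on low counts, only the groups of 1 time, treated against treated, a replicate block and leaving out each library in turn.

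Genes are named by this rule: the 12 largest differences in each direction with an adjusted p under 0.05, protein-coding where a reference gives the kind, a group mean of 5 CPM or more, and no overlap of the PMR-116 and CX-5461 libraries after subtraction of their vehicle means (at both times for the mean). Up to 4 called members of a list, or the 1 with the smallest p, and all genes of the panel are named too, except 1 gene that is not reported here. The members and lists were chosen with earlier results of these data known. Gene positions are from GENCODE 29 and promoters from RefSeq, all on GRCh38.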

Additional observations from a re-analysis of the deposited data

Results flagged for a closer look

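In groups of 4 libraries, 1 library stood apart from its group for 10 of the 208 combinations of a named gene and a KG-1 group, by Dixon's test at its 95% critical value. Chance gives such a gap in about 1 of 20 groups. In groups treated with CX-5461 for 3 h, DLGAP5 was lowest in replicate 2 at 32.8 CPM (others 46 to 47.1), TCF19 highest in replicate 2 at 120.0 CPM (108 to 109), SPPL2A highest in replicate 3 at 22.6 CPM (20 to 20.4) and TRAFD1 highest in replicate 4 at 57.3 CPM (51.4 to 52.2). In the vehicle of CX-5461, DLGAP5 was lowest at 3 h in replicate 3 at 51.1 CPM, and at 12 h TIGD5 and ZNF776 were lowest in replicate 4, at 42.6 CPM (48.1 to 49.3) and 18.8 CPM (25.5 to 26.9), and NANOS1 in replicate 1 at 1.74 CPM (2.02 to 2.06). With PMR-116 for 12 h DLGAP5 was highest in replicate 3 at 68.6 CPM (56 to 57.6), and in its vehicle at 12 h AP5B1 was highest in replicate 3 at 72.8 CPM (68.2 to 68.9).

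The difference between the compounds itself differed between KG-1 and Mv4;11 for 9 results, by edgeR in the fit of both lines. At 3 h KG-1 minus Mv4;11 was 1.07 log2 for TSPAN33 (adjusted p = 0.00657), -0.73 for HEXIM1, -0.85 for KIF20A, -0.61 for AURKA and -0.57 for AP5B1, whose values in each line stand in the report. MDM2 had -0.02 in KG-1 and -0.92 in Mv4;11, a difference of 0.89 (adjusted p = 0.0206) that held in all 28 omissions of 1 library of that time. KIF20A was not called without replicate 3 treated with CX-5461, replicate 2 treated with PMR-116 or replicate 3 of the PMR-116 vehicle, all of Mv4;11 (highest adjusted p = 0.0769). At 12 h NANOS1 had 1.46 in KG-1 and -0.1 in Mv4;11 (1.56, adjusted p = 0.0282, lost in 7 of 28 omissions), POLR1A -0.02 and -0.69 (0.65, adjusted p = 0.0493, lost in 15) and PTPRC -0.11 and 0.59 (-0.71, adjusted p = 0.0115, at 0.0508 without replicate 3 of the CX-5461 vehicle of Mv4;11).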

How the results depend on the processing

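No called difference of a named gene changed sign under any alternative, but 15 uncalled results did, and the counts of called genes moved; the cause was not tested. For 3 h (2 genes), 12 h (9) and the mean (19), DESeq2 called 16, 91 and 143 genes, treated against treated 22, 379 and 333, and the latter with the replicate block, chosen after seeing the data, 103, 1321 and 1082. With library totals 26 genes were called at 12 h and 42 in the mean, without the filter 3 and 10, and with only the groups of 1 time 1 gene at 3 h and none (0) at 12 h. DESeq2 called 1 gene in the change between times, 2 and 1 between vehicles at 3 h and 12 h, 1105 and 803 for CX-5461, and 83 and 386 between lines, where library totals gave 37 and 156. Without the filter CX-5461 had 371 and 268 genes and PMR-116 at 12 h 1152, and with only the groups of 12 h CX-5461 had 272.

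The replicate numbers did not meet the rule for pairing: deviations of same-numbered libraries correlated at -0.043 to 0.252 (mean 0.0937). Those of different numbers had a mean of -0.0312, and 30 of 32 libraries correlated best with their own number. The labels do not say what a number shares, so pairing was neither shown nor excluded. With the number as a replicate block, 18, 179 and 245 genes were called at 3 h, at 12 h and in the mean, PMR-116 had 2599 and 3198 at 3 h and 12 h and CX-5461 had 1733 and 1313, and 69 and 457 between lines. Between treated groups the replicate block gave 40 G2/M and 16 replication genes at 12 h.

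Leaving out 1 library gave 2 to 3 genes at 3 h, 0 to 13 at 12 h and 8 to 33 in the mean. At 12 h the count was 0 without replicate 1 or 2 of CX-5461, replicate 3 of its vehicle, replicate 3 or 4 of PMR-116 or replicate 4 of its vehicle, 1 without replicate 1 of the PMR-116 vehicle, 3 without replicate 2 of the CX-5461 vehicle, and 5 without replicate 4 of CX-5461 or replicate 3 of the PMR-116 vehicle. In the mean it was 33 without replicate 2 of the CX-5461 vehicle of 12 h, 8 without replicate 3 of PMR-116 at 3 h, 11 without its replicate 4 at 12 h and 12 without replicate 3 of its vehicle at 3 h. The change between times had 0 to 1 genes and the vehicles 0 to 0. PMR-116 had 901 to 1279 genes at 3 h and 1191 to 1513 at 12 h, CX-5461 had 362 to 582 and 288 to 401, and between lines 11 to 53 at 3 h and 52 to 214 at 12 h. PMR-116 had 901 genes at 3 h without replicate 2 of its vehicle. CX-5461 had 362 to 380 at 3 h without its replicate 1 or 2 or replicate 2, 3 or 4 of its vehicle, and 288 to 311 at 12 h without its replicate 1 or 2 or replicate 3 or 4 of its vehicle. Between lines at 3 h, Mv4;11 libraries moved the count: 53 without replicate 1 of PMR-116, 11 without its replicate 2 or 3 and 12 without replicate 3 of its vehicle. At 12 h it was 52 without replicate 1 and 143 without replicate 2 of CX-5461, 59 without replicate 3 of its vehicle, 145 without replicate 1 of PMR-116 and 197 without replicate 3 of its vehicle, all in Mv4;11. In KG-1 it was 214 without replicate 1 of CX-5461, 163 and 143 without replicates 3 and 4 of PMR-116 and 142 without replicate 1 of its vehicle. Spearman's rho of the mitochondrial order stayed between -1.0 and -0.974 in all omissions and between -1.0 and -0.908 in the other alternatives. Library totals were at least 31010467 counts with 4 libraries in a group, and which of these limits small differences was not tested.

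For the uncalled results that changed sign, leaving out 1 library gave ranges at 3 h of -0.502 to 0.287 log2 for EGR1, -0.068 to 0.021 for MDM2, -0.036 to 0.066 for POLR1A and -0.117 to 0.006 for POLR1B. At 12 h they were -0.152 to 0.361 for ATF3, -0.266 to 0.386 for DDIT3, -0.494 to 0.465 for EGR1, -0.124 to 0.196 for FOS, -0.178 to 0.022 for MYC and -0.089 to 0.036 for POLR1A, and in the mean -0.255 to 0.071 for DDIT3, -0.288 to 0.192 for EGR1, -0.352 to 0.096 for JUN and -0.035 to 0.028 for POLR1A. Treated against treated, without and with the replicate block, EGR1 and FOS turned at 12 h (-0.093 and -0.118, -0.103 and -0.095), EGR1 in the mean (-0.038 and -0.078), and POLR1B (0.034 and 0.033) and TOP2B (-0.017 both) at 3 h, with EGR1 at 0.018 without it. The replicate block alone gave -0.026 for EGR1 and -0.002 for POLR1A in the mean, and POLR1A was at -0.002 also with DESeq2 and with its size factors in edgeR.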
